A study of Drosophila melanogaster with 6 samples.

Results

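The innexins, the gap junction proteins of invertebrates, were followed in cultured Drosophila phagocytes that had been offered fragments of apoptotic cells. The family was taken as zpg, ogre, Inx2, Inx3, Inx5, Inx6, Inx7 and shakB, and a probe set was counted as a member where the array annotation gave it exactly 1 gene symbol and that symbol was on this list. By this rule 7 of the 8 genes had 1 probe set each, so that the family held 7 of the 18769 probe sets tested. The genes were thus chosen by name, but the family, and zpg within it, was picked from among others with the differences between these arrays known. For shakB no single-gene probe set was listed, and it was not analysed here. The cells were S2 cells, a macrophage-like line established from Drosophila embryos. In 3 cultures they were incubated with apoptotic cell fragments, at 25 fragments per cell, and in 3 with medium alone, all for 1 h at 25 °C in medium with 1% serum, and each culture was measured on 1 Affymetrix expression array. The fragments came from S2 cells killed with the translation inhibitor cycloheximide (1.5 µg/ml, 24 h), so phagocytes and fragments shared a cell line. RNA or cycloheximide brought along with the fragments and a response of the living cells cannot be told apart in this design. The titles call the replicates biological; no genotype or transgene differed between the groups.

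Innexin subunits assemble into hemichannels in the plasma membrane, and the hemichannels of adjoining cells dock to form channels that let ions and small molecules pass directly between cytoplasms. Members differ mainly in the tissue that uses them. Zpg (zero population growth, also called Inx4) is the germline innexin, needed for early germ cells to survive and differentiate, whereas Ogre, Inx2 and Inx3 are used in epithelia and glia, where Inx2 and Inx3 can share a channel. Inx6 and Inx7 form channels between neurons that serve memory, and ShakB builds the electrical synapses of the giant fibre escape circuit.

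The values are log2 expression values as deposited. In 11528 of the 18769 probe sets (61.4%) the highest and the lowest array were under 0.01 log2 units apart. Such probe sets are called flat here and the other 7241 varying. A flat value can show no change, and it does not show that a transcript is absent. The hemocyte markers read as labelled in part. Of 11 measured, 6 varied and stood on all arrays above 7.86, the 95th percentile of the flat levels (srp, Hml, crq, Col4a1, vkg and drpr), while NimC1 was flat and eater, He, Pxn and Ppn did not reach that level on every array. Between the groups, crq, a CD36-family engulfment receptor gene, had 9.33, 9.18 and 9.37 with fragments, against 10.06, 10.04 and 10.20 in medium alone. This difference of -0.80 passed in limma without the flat probe sets (limma adjusted p = 0.00559) but not with them (0.0698). It was the 1 hemocyte marker that did, of 10 that varied, against 6.85% of all varying probe sets. The groups of the matrix gene Ppn and of eater did not overlap either (differences -0.74 and -0.11, neither of which passed). Thus 3 of the 10 were lower without overlap, against 17.4% of all varying probe sets. The medium-alone array of replicate 3 stood apart from the others of its group. It correlated with them at r = 0.990 and 0.991 across probe sets, against 0.999 between replicates 1 and 2 and 0.997 to 0.999 among the fragment arrays.

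Of the 7 measured innexins, 4 varied (zpg, ogre, Inx2 and Inx5) and 3 were flat (Inx3, Inx6 and Inx7). The germline innexin zpg was far lower with fragments, and on the deposited scale its difference was the largest of all tested probe sets, in either direction, though not without medium-alone replicate 3 or after scaling to spikes. The 3 other varying innexins differed by at most 0.060 log2 units between the groups.

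The zpg probe set read 7.17, 7.04 and 7.55 on fragment arrays 1, 2 and 3, against 8.96, 9.05 and 9.66 on arrays 1, 2 and 3 of medium alone. The groups did not overlap, and replicate 3 was the highest array in each of them. The lowest array of medium alone lay 1.41 log2 units above the highest fragment array, while the arrays spread over 0.51 units within the fragment group and 0.69 within medium alone. The mean was 7.25 ± 0.26 with fragments and 9.22 ± 0.38 in medium alone (SD, n = 3 each). The difference, fragments minus medium alone, was -1.97 log2 units with an SE of 0.26 (limma, 95% interval -2.69 to -1.25), which is a 3.92-fold lower value. Without the medium-alone array of replicate 3, on which zpg was highest, it was 3.37-fold. The gene was singled out with these values known, so they stand as a description.

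**Figure D1:**
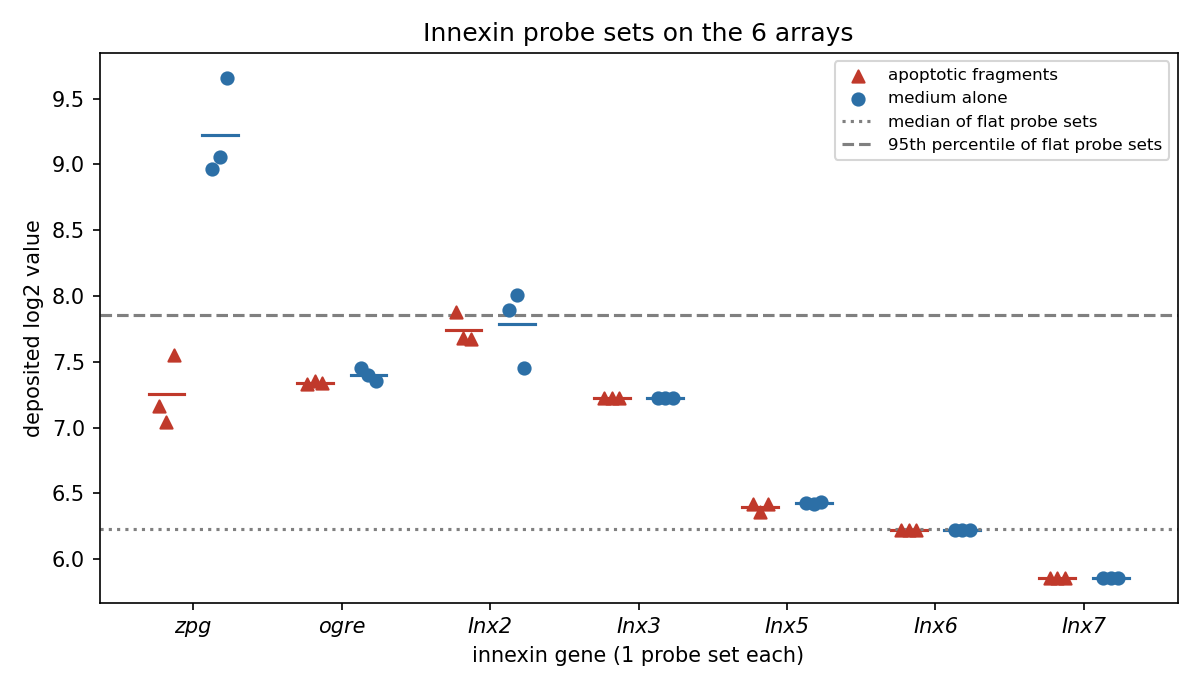
Deposited log2 value (vertical axis) of each innexin probe set on each array, with fragments as red triangles on the left of each gene, medium alone as blue circles on the right, and short lines at the group means. The dotted and dashed lines mark the median (6.23) and the 95th percentile (7.86) of the flat probe sets; zpg is the one gene whose groups lie on opposite sides of the dashed line.

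Placed among the 18769 probe sets on the deposited scale, zpg ranked 1 in the order of falls. Without medium-alone replicate 3 it ranked 4. The next largest fall was -1.81 log2 units and the largest rise on the array 1.74. A fall of at least 1.5 was seen in 12 probe sets and a rise of at least 1.5 in 3. Among the varying probe sets the difference at percentile 5 was -0.47 and that at percentile 95 was 0.46. The replicate spread of zpg was also large. Its pooled SD of 0.33 exceeded that of 94.9% of the varying probe sets, whose median was 0.093.

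**Figure D2:**
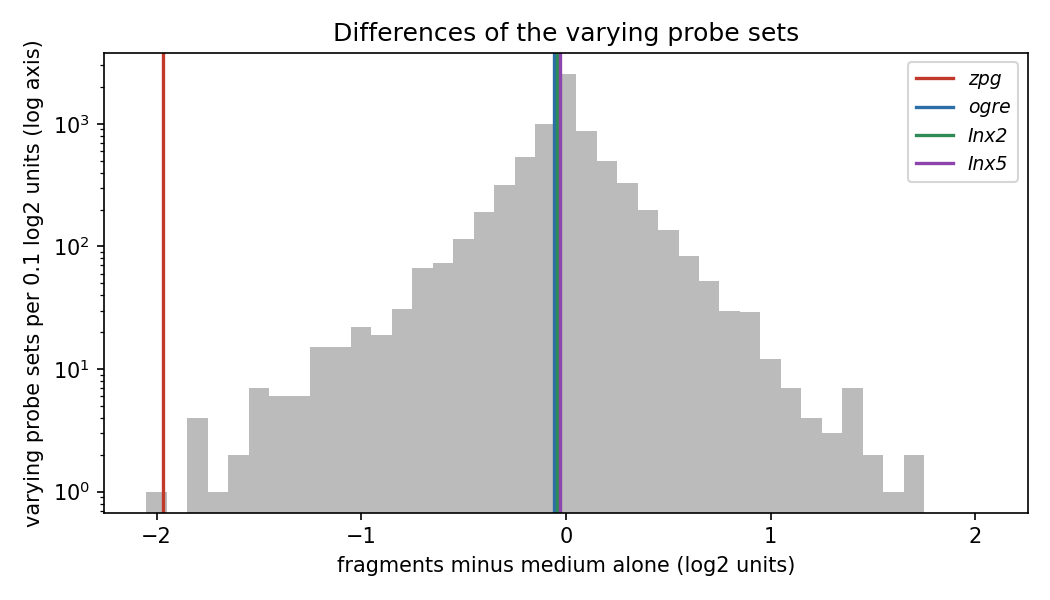
Number of varying probe sets (vertical log axis) by the difference of fragments minus medium alone in log2 units (horizontal axis, bins of 0.1), with coloured lines at the 4 varying innexins. The line of zpg stands at -1.97, at the far left end of the distribution, and those of ogre, Inx2 and Inx5 stand between -0.060 and -0.028, at its centre.

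In the test over all probe sets (limma, Benjamini-Hochberg adjustment), 0 of the 7 innexin probe sets passed an adjusted p of 0.05, against 0.304% of all probe sets. An unadjusted p under 0.05 was reached by 1 innexin, zpg, and by 2031 probe sets of the array. Despite its size the difference of zpg had a limma adjusted p of 0.121 there. The probe sets that did pass had a median pooled SD of 0.061 and none above 0.136. With the flat probe sets left out, 1 of the 4 varying innexins passed, lower with fragments, against 6.85% of the varying probe sets in either direction and 4.56% lower. That innexin was zpg, with a limma adjusted p of 0.0116. In that fit it did not pass without fragment replicate 1 or without fragment replicate 2 (limma adjusted p = 0.0687 and 0.0635). The exact two-sided permutation test over the 6 arrays gave p = 0.1, the smallest it allows with 3 arrays against 3. Since the member was chosen with its values in view, these p-values say where it lies in each fit and are no independent evidence.

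The epithelial and glial innexins came next. Inx2, which forms channels in epithelia and glia, read 7.88, 7.68 and 7.67 with fragments, against 7.90, 8.01 and 7.46 in medium alone. Its groups overlapped fully, and the lowest of the 6 values was that of medium-alone replicate 3. The difference was -0.043 log2 units (SE 0.18, limma adjusted p = 0.964). Its 95% interval, from -0.54 to 0.45, does not reach the size seen for zpg but leaves room for moderate changes either way.

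The probe set of ogre, also known as Inx1, read 7.33, 7.35 and 7.34 with fragments, against 7.45, 7.40 and 7.35 in medium alone. The fragment arrays lay close together near the lower end of the medium-alone values, and the groups overlapped. The difference was -0.060 (SE 0.030, 95% interval -0.14 to 0.022, limma adjusted p = 0.600). Its probe set carries a suffix (_s_at) that the manufacturer gives to probe sets that may match more than 1 transcript.

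Inx3, the partner of Inx2 in epithelial channels, was flat at 7.23 on all 6 arrays, with a range of only 7.5e-05 log2 units. Its level exceeded that of 91.2% of the flat probe sets. A flat value of this kind carries no information on a change.

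**Figure D3:**
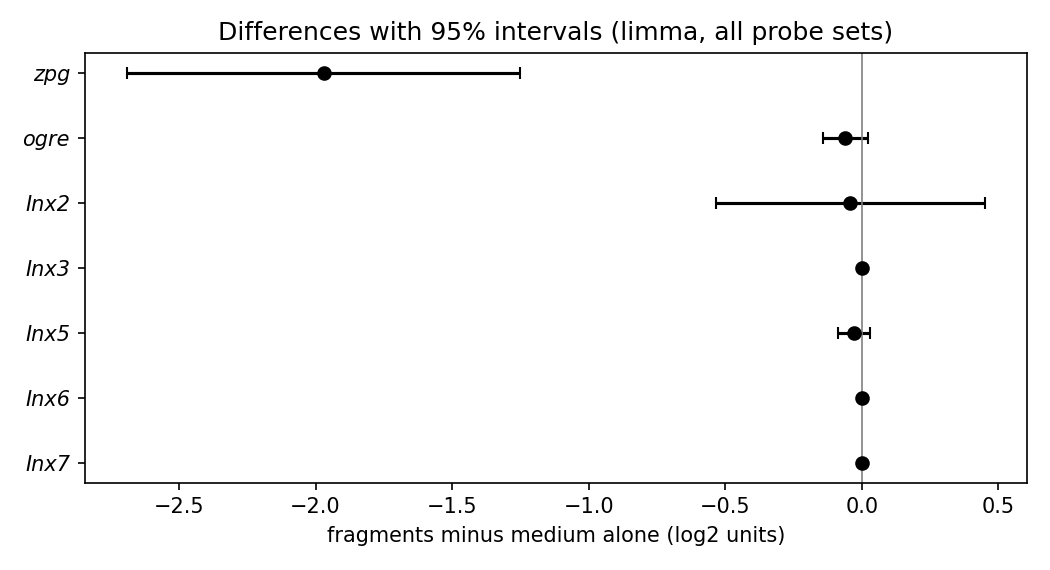
Difference of fragments minus medium alone in log2 units (horizontal axis) for the 7 measured innexins, with bars for the 95% interval of the limma fit over all probe sets. The interval of zpg runs from -2.69 to -1.25 and lies wholly below 0, while those of ogre, Inx2 and Inx5 include 0; the 3 flat genes have intervals too narrow to see, which reflects their constant values.

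Inx5 read 6.42, 6.36 and 6.42 with fragments, against 6.42, 6.42 and 6.44 in medium alone. The fragment arrays lay just below those of medium alone without overlap, as did 17.4% of the varying probe sets. The difference was -0.028 (SE 0.021, 95% interval -0.085 to 0.029, limma adjusted p = 0.739). Its range of 0.078 over the 6 arrays was the smallest of the varying innexins. The largest of the flat ones was that of Inx3, 7.5e-05, so the limit of 0.01 lay well between them.

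The measured neuronal innexins were both flat. Inx6 stood at 6.22 and Inx7 at 5.86 on all 6 arrays, against a median of 6.23 for flat probe sets.

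The small differences of the other innexins depended on the scale. Hybridisation spikes, foreign control transcripts put on each array in known amounts, read 10.38 ± 0.11 with fragments and 10.65 ± 0.16 in medium alone (SD, n = 3 each), so setting each array to its spikes adds 0.26 to every log2 difference. On that scale ogre, Inx2 and Inx5 had differences of 0.20, 0.22 and 0.23, with the opposite sign, and none of them passed (limma adjusted p = 0.164, 0.130 and 0.107). Every measured innexin had the same SE of 0.14 there, so these p-values follow the size of the difference alone. The flat probe sets of Inx3, Inx6 and Inx7 then differed by 0.26. Negative differences smaller than 0.26 in size, such as those of ndl, alpha-Cat and CG16890 given further on, also become positive there. The difference of zpg was -1.71 on that scale, a 3.27-fold lower value with fragments. It was still first among the falls there, but 6 rises were larger in size, up to 2.00.

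Compared with the flat level, the innexins divided as follows. The means over the 6 arrays of zpg, Inx2, ogre, Inx3 and Inx5 lay above the median of the flat probe sets and those of Inx6 and Inx7 below it. By the stricter limit, the 95th percentile of the flat probe sets, 0 of the 7 stood above it on all 6 arrays. On the 3 arrays of medium alone zpg was above this limit, and on 0 of the 3 fragment arrays. Inx2 exceeded it on 1 of the 3 fragment arrays and on 2 of the 3 of medium alone, and the other 5 innexins on 0 of 6. A looser measure is the mean over the 6 arrays, by which 42.8% of the varying probe sets lay at or below the limit. By that mean zpg (8.24) was above it, and Inx2 (7.77), ogre (7.37) and Inx5 (6.41) were below. Probe sets differ in how strongly they bind their target, so the levels do not rank the innexins by transcript amount.

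The genes of ogre, Inx7 and Inx2 lie near each other on the X chromosome, in that order, in the RefSeq gene table (Release 6 plus ISO1 MT), Inx5, Inx6 and shakB lie elsewhere on X, zpg on 3L and Inx3 on 3R. Of the measured neighbours of zpg, one varied, with a difference close to 0, and the other was flat and can show no change. On one side lies ndl, which encodes the eggshell protease Nudel. It read 6.80, 6.88 and 6.89 with fragments, against 7.15, 6.96 and 6.75 in medium alone, overlapping values with a difference of -0.094 (limma adjusted p = 0.859). On the other side the nearest measured gene, axed, which acts in axon degeneration, was flat at 6.64. Rexo5, which overlaps zpg in the gene table, was not analysed here. Around the other innexins, CG1647, CG33203, CG1504, CG15452 and CG11227 were flat and can show no change. The neighbours CG3040, cm, RhoGAP18B, CG7556 and CG17065 varied, with differences between -0.12 and 0.039, and none of them passed in either fit. Of all varying probe sets 6.85% passed with the flat ones left out.

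The 5 single-gene probe sets whose 6 values followed those of zpg most closely were CG6479, CG30394, ZnT41F, CG16890 and CG5641, with Pearson correlations of 0.998 to 0.999 over the 6 arrays. ZnT41F encodes a zinc transporter. CG30394 read 6.75, 6.74 and 6.98 with fragments, against 7.81, 7.80 and 8.12 in medium alone, a difference of -1.09. In CG6479 the difference was -0.93, in CG5641 -0.68, in ZnT41F -0.66 and in CG16890 only -0.020. Like zpg, each of them was lower with fragments and read highest, within each group, on replicate 3. They were chosen for following zpg over these arrays, so the shared pattern comes from the choice. Correlations over 6 arrays in 2 groups are easily high, and 549 of the 5973 candidate probe sets exceeded 0.9.

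**Figure D4:**
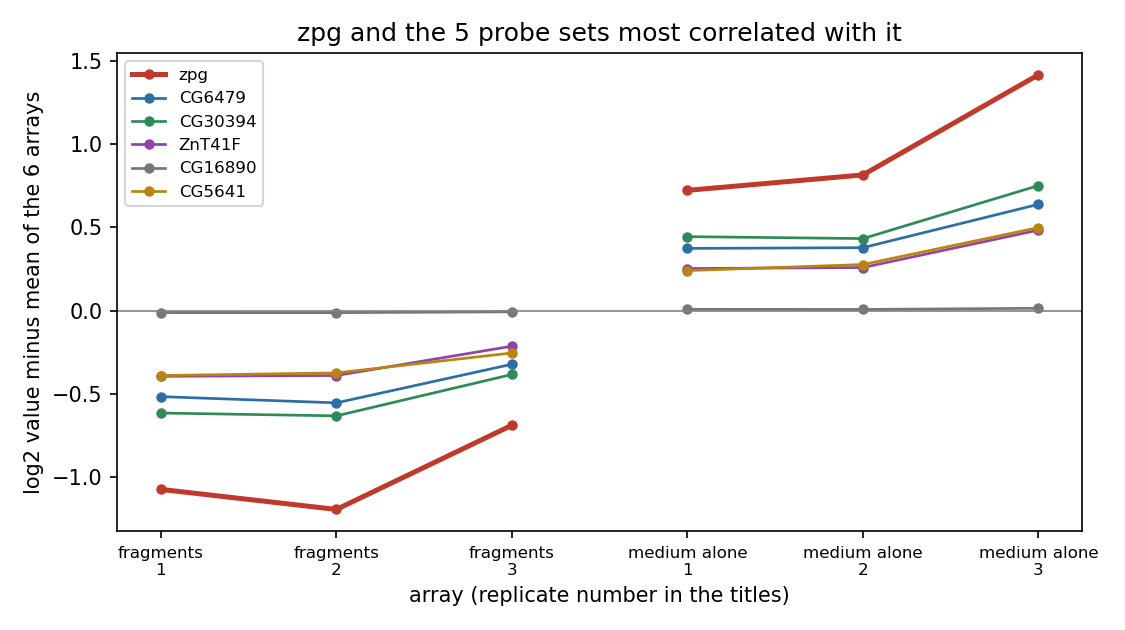
Log2 value minus the mean of the 6 arrays (vertical axis) on each array (horizontal axis, fragments left, medium alone right) for zpg, in the thick red line, and the 5 most correlated probe sets. All 6 are lower with fragments and have their highest value of each group on replicate 3, which follows from the choice by correlation. CG16890 varies by so little that its line is almost level.

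Genes of germ cells were examined because zpg is used there. Of 22 written, 18 had a single-gene probe set, and 12 of these varied. Over all probe sets 0 passed in limma, against 0.304% of the array. An unadjusted p under 0.05 was reached by 3 of the 18, against 2031 of all 18769 probe sets. The same 3 passed with the flat probe sets left out, 2 lower and 1 higher (against 4.56% and 2.29% of all varying probe sets). The lower ones act in the piRNA pathway that silences transposons. The RNA helicase gene armi read 7.80, 7.89 and 7.99 with fragments, against 8.38, 8.44 and 8.52 in medium alone (difference -0.55, limma adjusted p = 0.0115 without the flat probe sets and 0.108 with them). The difference of mael was -0.31 (0.0331 and 0.184). In the opposite direction, bam, the switch that drives germ cells out of the stem cell state, read 7.84, 7.98 and 7.62 with fragments, against 7.06, 6.96 and 6.69 in medium alone (difference 0.91, limma adjusted p = 0.0224 and 0.181). Of the 12 varying genes 6 had groups without overlap, 4 lower with fragments (armi, mael, zuc and krimp) and 2 higher (bam and aub), against 17.4% and 14.7% of all varying probe sets. The differences of zuc and krimp, both also of the piRNA pathway and outside the rule for named genes, were -0.31 and -0.24 and did not pass. That of aub, of the same pathway, was 0.40, in the opposite direction, and did not pass. The genes piwi, AGO3 and spn-E, also of this pathway and outside that rule, were flat and can show no change. The median difference of the 18 genes was close to 0, as was that of all probe sets, and the varying 12 had one of -0.024, against -0.0035 for all varying probe sets. Without medium-alone replicate 3 these medians were -0.14 and -0.0062.

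Of 4 measured genes among the defining germline markers, AGO3 and bgcn were flat at 6.39 and 6.18 and can show no change. The other 2, bam and aub, were higher on the fragment arrays without overlap, as were 14.7% of the varying probe sets. Of the 4 markers, 0 stood on all arrays above 7.86, the limit applied to the hemocyte markers. The highest value of aub was 7.25, and bam exceeded the limit only on fragment array 2 (7.98). Whether these germline markers or the hemocyte markers had a part in the difference of zpg was not tested. Whether the number of cells that carry zpg RNA or the RNA per cell differed cannot be told apart in RNA from whole cultures.

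Among 13 measured genes of adherens junctions and cell polarity, 11 of them varying, 0 passed in either limma fit. The shares were 0.304% of all probe sets and 6.85% of the varying ones. Unadjusted, 3 of the 13 reached a limma p under 0.05, against 2031 of all 18769 probe sets. The apical determinant gene crb read 7.16, 7.14 and 7.08 with fragments, against 6.98, 6.92 and 6.86 in medium alone (difference 0.21, limma adjusted p = 0.229). For par-6, which encodes a scaffold of the Par polarity complex, the difference was 0.37 (0.296), and for alpha-Cat, which ties cadherin to actin, -0.094 (0.342). The list's median difference was 0.16, against values close to 0 for all probe sets and -0.0035 for the varying ones. Over the 11 varying members it was 0.16, and 0.061 without medium-alone replicate 3.

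Septate junctions, the occluding junctions of insect epithelia, were represented by 23 measured genes, 15 of them varying. Over all probe sets 0 passed in limma, against 0.304% of the array. An unadjusted p under 0.05 was reached by 6 of the 23, of which 2 were flat, against 2031 of all 18769 probe sets. With the flat probe sets left out, 1 of the 15 passed, a share near the 6.85% of all varying probe sets. This was sinu, which encodes a claudin-like membrane protein. It read 7.09, 7.15 and 7.06 with fragments, against 7.56, 7.65 and 7.44 in medium alone (difference -0.45, limma adjusted p = 0.0203 without the flat probe sets and 0.149 with them). The Ly6-type protein gene cold differed by -0.77 (0.0773 and 0.339), with values of 7.37, 7.52 and 7.31 with fragments, against 7.86, 8.09 and 8.55 in medium alone, and Tsf2 was flat at 7.15. The largest difference of the list was that of Gli, 0.99, higher with fragments (limma adjusted p = 0.102 and 0.396). Of the 15 varying genes 4 were lower without overlap and 1, Gli, higher, against 17.4% and 14.7% of all varying probe sets. The median difference was close to 0 over the 23 genes and 0.0090 over the 15, which turned to -0.095 without medium-alone replicate 3.

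Gap junctions pass calcium and inositol trisphosphate, and genes that make or handle these messengers were the last list. Of 9 measured, 4 varied and 0 passed in either limma fit, against 0.304% of all probe sets and 6.85% of the varying ones. With so few varying genes a count of 0 says little. An unadjusted p under 0.05 was reached by 1 of the 9, a flat one, against 2031 of all 18769 probe sets. The calcium channel gene Orai, of the store-operated entry pathway, differed by 0.34 (limma adjusted p = 0.708), with values of 10.45, 10.18 and 10.34 with fragments, against 10.19, 10.22 and 9.54 in medium alone. Its groups overlapped, and medium-alone replicate 3 was the lowest array. Pkc53E, a protein kinase C gene, and Plc21C, a phospholipase C gene, were flat at 6.32 and 7.07. The varying 4 had a median difference of 0.034, which turned to -0.021 without medium-alone replicate 3. Since medium-alone replicate 3 read low for several of these junction genes, the counts were repeated without it and without the flat probe sets. Then 876 of the 7241 varying probe sets (12.1%) passed in limma. In the lists, par-6 and p120ctn passed as higher with fragments among the 11 adherens junction and polarity genes, sinu and cold as lower and Gli as higher among the 15 of septate junctions, and armi, mael and gcl as lower and bam as higher among the 12 germline genes. The 4 varying calcium genes again gave 0. The genes p120ctn, Gli and gcl, which encode a cadherin-bound catenin, the septate junction protein Gliotactin and a germ cell formation factor, lie outside the rule for named genes.

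**Figure D5:**
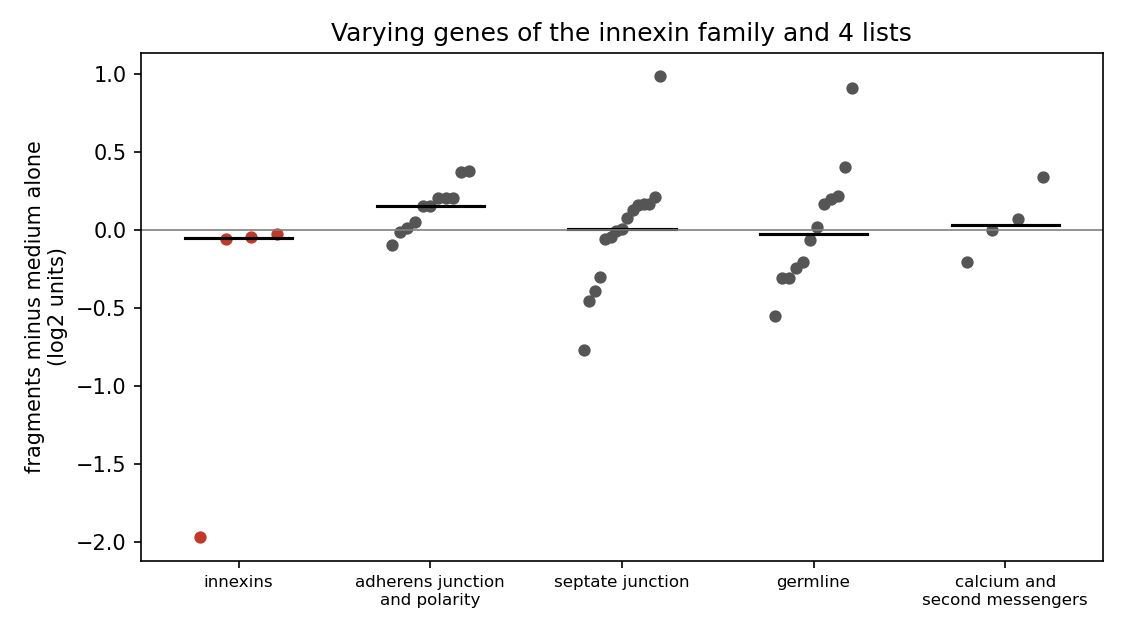
Difference of fragments minus medium alone in log2 units (vertical axis) for the varying members of the innexin family, in red, and of the 4 gene lists, in grey, with a line at each median and 1 point per gene. The zpg point stands at -1.97 and the lowest of the 4 lists is cold at -0.77. As zpg had the largest fall of all probe sets and was chosen with that known, it must lie below any list.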

How the data were processed

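Total RNA of 6 S2 cultures was hybridised to Affymetrix arrays after biotin labelling with a 3′ in vitro transcription kit, per the labels' protocols. The authors deposited 1 log2 expression value per probe set and array. The submitters' processing notes name R 2.7.2, but the summary of probes and the normalization of arrays are not stated there or in the labels. The values were used as deposited, without an offset or level filter. The 183 control probe sets were left out, which left 18769. Arrays carry no read depth, and their number (3 per group) limits the precision.

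Groups came from the sample titles. The comparison used limma 3.58.1 (lmFit, eBayes; R 4.3.3), as fragments minus medium alone, with Benjamini-Hochberg adjustment over all probe sets and a threshold of 0.05. The fit was checked on data simulated with independent noise at the spread of each probe set. Such data lack deviations shared across an array, like that of medium-alone replicate 3, so the check does not speak to them. The flat probe sets bring the prior degrees of freedom down to 0.123, so the fit was repeated on the 7241 varying ones (1.36 prior degrees of freedom). Where a list gene had several probe sets, the one with the highest mean stood for it. Of 7 innexin probe sets, all 7 matched the RefSeq gene table by gene identifier; no coordinates are given, as no build is named for the array values.

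Every innexin probe set was named, as were the 3 genes of smallest p in each list, the nearest measured gene on each side of an innexin, and the 5 single-gene varying probe sets most correlated with zpg. Rexo5 and the marker genes given by name were added outside that rule. The members and lists were chosen with earlier results of these data known. Alternatives covered normalization, spike scaling, flat probe sets, moderation, probe set suffixes, a replicate block and the omission of each array.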

Additional observations from a re-analysis of the deposited data

How the results depend on the processing

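The difference of zpg was negative under all 19 alternatives tried, between -2.12 and -1.71 log2 units. Several of these cannot move the estimate from -1.97, and each omission of an array is counted in both fits. As the groups did not overlap and zpg was chosen with its values known, the constant sign is no independent evidence. Its side of the threshold moved, and so did its rank. By rank, zpg was 4 among the falls without medium-alone replicate 3, and 7 by absolute size on the spike scale. Over all probe sets its difference was -2.12 to -1.75 with 1 array left out (limma adjusted p = 0.152 to 0.443). It passed, with 1 innexin probe set called, on the spike scale (-1.71, limma adjusted p = 2.82e-31). There every flat probe set carries the spikes' own spread, so that p-value is not comparable with the others. Among the varying probe sets alone it was -1.97 and 1 innexin passed (adjusted p = 0.0116). There, leaving out 1 array as well, which was chosen after seeing the data, gave -2.12 to -1.75 (adjusted p = 0.00581 to 0.0687; -2.10 and -2.06 without medium-alone replicates 1 and 2) and 0 to 1 innexins called; the call ended without fragment replicate 1 or 2. Inx2 changed sign, to 0.012 and 0.069, without medium-alone replicate 1 and 2, in either fit (range -0.21 to 0.069 with 1 array left out), and ogre, Inx2 and Inx5 did so on the spike scale (0.20, 0.22 and 0.23). No call of theirs changed.

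Over the whole array limma called 57 probe sets. The count was 129 after quantile normalization (89 lower, 40 higher), 1685 on the spike scale (193 lower, 1492 higher), 496 with the flat probe sets left out, 19 without the _s_at, _x_at and _a_at suffixes (17 lower, 2 higher), and 0 to 8 with 1 array left out (1432 to 2056 at an unadjusted p under 0.05). The causes were not tested. No innexin met the definition of above the flat level (0 of 7) under the 3 other limits tried.

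The titles give same-numbered arrays a shared number and no other link. The deviations from the group means of pairs 1, 2 and 3 correlated at 0.44, 0.038 and 0.37. Fragment array 3 correlated with medium-alone arrays 1 and 2 at -0.33 and -0.37. Whether the arrays were paired cannot be settled from these values. With the replicate block the difference of zpg was -1.97, with an SE of 0.089 against 0.26 without the block. Its limma adjusted p was 0.276, or 0.0150 without the flat probe sets, where 1 innexin passed. The block left 0 calls over the array (1868 at an unadjusted p under 0.05). Fragment array 1 correlated best with medium-alone array 2 (0.46).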
